A study of Mus musculus with 4 samples.

Results

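The transcripts described here are 44 RefSeq noncoding RNAs whose signal differed between Irf4-/- and wild-type CD4+ T cells in both replicate pairs. They were taken from 663 noncoding accessions (RefSeq accessions beginning with NR_) that could be tested, of 2340 on the arrays. Each accession was represented by its brightest probe, which had to stand well above background on each array of 1 genotype or of both. The difference, Irf4-/- minus wild type, had to have the same sign and a size of 0.7 or more on the log2 scale for replicate 1 and for replicate 2. Since these differences chose the RNAs, they are given below as a description, with no test. Signal was higher in Irf4-/- cells for 33 of the RNAs, 4.98% of the noncoding accessions tested, and lower for 11, or 1.66%. The same rule held for 3.94% (higher) and 2.26% (lower) of all 21623 accessions tested, and for 4.32% and 2.78% of the 13211 protein-coding ones (accessions beginning with NM_). In either direction the shares were 6.64% of noncoding, 6.2% of all and 7.1% of protein-coding accessions, so the number of noncoding RNAs chosen lay near the background. The split of 33 higher and 11 lower became 24 and 19 when arrays were scaled on their median, which shifted the median difference of all accessions tested by -0.11.

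The cells were naive CD4+ T cells, CD62L+ and CD44-, sorted from the spleens of male C57BL/6 mice that either lacked Irf4 throughout the body (Irf4-/-, 2 arrays) or were wild type (2 arrays). Both were activated in the presence of anti-CD3 (1 µg per ml) in co-culture with mitomycin C-treated antigen-presenting cells of the same strain, and living CD4+ cells were collected by a second sort on day 2, the time given by the titles and the design text. The protocol text also mentions cultures of shorter duration, which were not used to assign a time. Nothing in the labels ties a replicate number to a shared experiment, although they state that independent experiments were run, and pairs of arrays with the same number shared a row of the slide.

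Long noncoding RNAs are transcripts without an open reading frame known to be translated. Some act in the nucleus at the locus they are copied from and raise or lower the expression of a neighbouring coding gene, others serve as precursors of microRNAs or small nucleolar RNAs, and for most no function is known. In T cells they are often specific to a lineage or an activation state, and several lie beside genes of cytokines, surface receptors and lineage-defining transcription factors. Irf4, the factor missing here, is induced through the antigen receptor and binds DNA at composite elements together with AP-1 family factors such as Batf and Jun, or with Ets family factors, as well as at interferon response elements.

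Promoter sequences of 5 of the RNAs are shown first. They were picked because the window holds a motif searched for, lies at an RNA named below for its size or its locus, or is shared with a coding gene. RefSeq windows from 250 bases before to 50 after a start site, in the build GRCm38.p6, were given for 30 of the 38 genes to which 40 of the 44 accessions matched. Windows were searched on both strands for the AP-1 site TGANTCA, the interferon response element core (GAAA, any 2 bases, GAAA), the Ets-IRF element (GGAA, any 2 bases, GAAA) and the AP-1-IRF elements (TTTC, any 4 bases, then the AP-1 site, or GAAA joined directly to it), where N is any base. Capitals mark a match, and a match describes the letters only.
Morrbid, chr2:128429302-128429601, minus strand, the RNA with the largest measured difference downward: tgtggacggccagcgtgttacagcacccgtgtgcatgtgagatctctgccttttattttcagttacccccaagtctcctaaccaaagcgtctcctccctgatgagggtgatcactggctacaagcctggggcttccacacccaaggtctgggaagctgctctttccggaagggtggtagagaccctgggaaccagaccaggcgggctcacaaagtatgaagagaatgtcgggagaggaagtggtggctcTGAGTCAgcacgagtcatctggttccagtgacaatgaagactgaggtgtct
Gm6093, chr13:33569268-33569567, minus strand, measured on both Irf4-/- arrays and on neither wild-type array: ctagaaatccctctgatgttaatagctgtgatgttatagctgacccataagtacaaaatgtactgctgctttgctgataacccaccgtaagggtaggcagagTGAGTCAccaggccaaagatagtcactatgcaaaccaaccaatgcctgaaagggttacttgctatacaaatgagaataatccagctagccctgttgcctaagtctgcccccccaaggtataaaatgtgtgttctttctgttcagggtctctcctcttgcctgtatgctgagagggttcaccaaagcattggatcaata
Gm14718, chrX:57200387-57200686, plus strand, beside the gene for CD40 ligand: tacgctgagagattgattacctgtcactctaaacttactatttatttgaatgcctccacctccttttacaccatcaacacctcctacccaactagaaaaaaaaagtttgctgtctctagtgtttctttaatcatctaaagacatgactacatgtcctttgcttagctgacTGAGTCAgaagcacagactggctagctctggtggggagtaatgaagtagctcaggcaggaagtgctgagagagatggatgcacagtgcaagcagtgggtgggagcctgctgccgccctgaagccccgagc
Mirt1, chr19:53464747-53465046, minus strand: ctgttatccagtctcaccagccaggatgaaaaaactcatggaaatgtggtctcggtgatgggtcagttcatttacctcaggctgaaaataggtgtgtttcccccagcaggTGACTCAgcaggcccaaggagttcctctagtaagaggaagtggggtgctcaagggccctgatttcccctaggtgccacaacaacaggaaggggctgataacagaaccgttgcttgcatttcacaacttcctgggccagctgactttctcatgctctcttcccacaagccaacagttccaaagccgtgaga
1110046J04Rik, chr13:33935782-33936081, plus strand, a window shared with the start of Serpinb6a and without a match: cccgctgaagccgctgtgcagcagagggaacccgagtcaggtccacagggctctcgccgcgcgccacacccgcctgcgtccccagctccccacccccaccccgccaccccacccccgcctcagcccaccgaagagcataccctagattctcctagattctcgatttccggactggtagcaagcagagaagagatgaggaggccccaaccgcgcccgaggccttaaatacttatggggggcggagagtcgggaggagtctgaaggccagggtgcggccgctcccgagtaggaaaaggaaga

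The AP-1 site was present in a window of 6 of these 30 genes (20.0%), against 30 of 358 other noncoding genes tested (8.38%) and 2425 of all 27025 genes with a window (8.97%). The 6 were Morrbid among the RNAs that were lower in Irf4-/- cells, and Gm6093, Gm14718, Mirt1, Gm17745 and 2010204K13Rik among those that were higher. The interferon response element core was present for Gm8013 and AI847159, or 6.67% of the 30 genes, against 3.63% of the other noncoding genes and 3.99% of all genes. The Ets-IRF element was present for 9130015A21Rik alone (3.33%, against 1.96% and 3.16%). Neither AP-1-IRF element was present in a window of the 30 genes or of the 358 others, and 0.13% and 0.14% of all genes held one. These shares were not tested, and they rest on a window of 300 bases at each annotated start.

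Levels below are log2 processed signals minus the 75th percentile of the same array, so that 0 is the signal of a probe brighter than most on the array. Between 25639 and 28695 probes per array were well above background. The 2 Irf4-/- arrays correlated at r = 0.989 across accessions, the 2 wild-type arrays at r = 0.992, and arrays of different genotypes at 0.978 to 0.986, where accessions are not independent replicates. The Irf4-/- arrays occupied columns 3 and 2 of the slide and the wild-type arrays shared column 1, so slide column and genotype cannot be told apart. Irf4 itself had levels of 4.23 and 4.04 in Irf4-/- cells and 5.03 and 4.74 in wild-type cells, a difference of -0.75 ± 0.20 (SE) that did not pass limma's test (adjusted p = 0.228). The dimmer of the Irf4 probes gave a difference of -0.37. Where these probes lie against the deletion was not analysed here, and the signal that remained checks nothing about it.

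T cell markers were all measured, with summed linear signals of 1409 and 1314 in Irf4-/- and 1384 and 1252 in wild-type cells, in units of the array's 75th percentile. Of 12 B cell markers 10 were tested, with sums of 15.2 and 9.49 in Irf4-/- and 5.07 and 2.74 in wild-type cells, and Fcer2a and Ebf1 were not above background. Of the 10, 5 met the rule as higher and 1 as lower. Of 12 myeloid and antigen-presenting cell markers 6 were tested, and Tyrobp met the rule as higher (1.87). Their sums were 36.1 and 31.5 in Irf4-/- and 32.7 and 28.2 in wild-type cells. Csf1r, Itgam, Cd68, Cd74, Cst3 and Tyrobp were above background on every array, and Lyz2, Adgre1, Cd14, Itgax, Fcgr1 and Spi1 were not above background. Among 8 markers of CD8 T and NK cells 4 were tested, with sums of 16.1 and 13.3 in Irf4-/- and 14.3 and 14.7 in wild-type cells, and Cd8a, Ncr1, Klrb1c and Klra4 were not above background. Of the 4, Klrd1 (1.87) and Eomes (1.44) met the rule as higher and Cd8b1 (-0.98) as lower. All 20 interferon response genes tested had positive differences, with a median of 1.67 against -0.02 over all accessions tested, and 1 of them passed limma's test. B cell markers, single CD8 T, NK and myeloid markers and interferon response genes therefore differed with genotype as the noncoding RNAs did, and their part in the values below was not tested. The arrays measured bulk RNA, in which fewer cells of a type and less RNA per cell cannot be told apart.

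**Figure D1:**
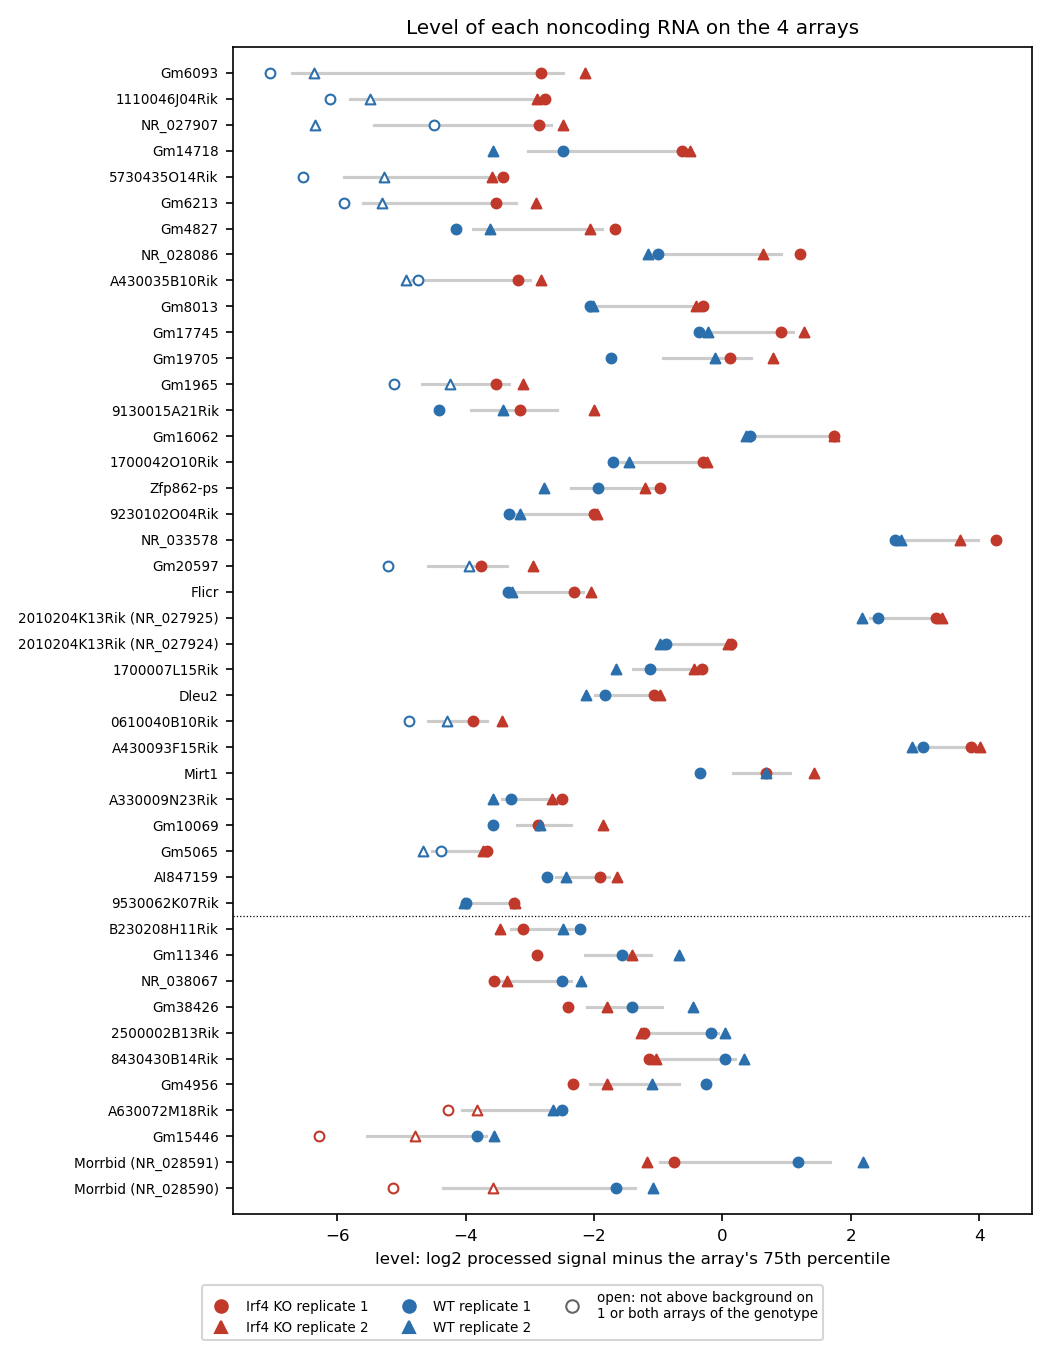
Level of each of the 44 noncoding RNAs on the 4 arrays (log2 processed signal minus the array's 75th percentile, horizontal axis), ordered by the mean difference. Red symbols are Irf4-/- arrays and blue symbols wild-type arrays, circles replicate 1 and triangles replicate 2. Open symbols mark a genotype in which 1 or both arrays were not above background, and grey bars join the genotype means. The dotted line separates the 33 RNAs that were higher in Irf4-/- cells, above it, from the 11 that were lower.

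Among the 11 RNAs that were lower in Irf4-/- cells, Morrbid stood first. Morrbid is a nuclear RNA that in mouse myeloid cells and CD8 T cells restrains the gene of the pro-apoptotic protein Bim, its coding neighbour. It is represented by 2 accessions with a probe each. By NR_028591 its level was -0.76 and -1.17 in Irf4-/- cells and 1.17 and 2.19 in wild-type cells, a mean difference of -2.65, or 6.26-fold. Both Irf4-/- arrays lay well below both wild-type arrays, and the gap was wider in replicate 2. By NR_028590 the level was -5.12 and -3.58 in Irf4-/- cells, where 1 of the 2 arrays was not above background, and -1.65 and -1.08 in wild-type cells. Both accessions thus had the same direction, on the same 4 arrays. The neighbour Bcl2l11, which encodes Bim, had levels of 4.45 and 4.34 in Irf4-/- cells and 4.84 and 4.76 in wild-type cells, a difference of -0.40 ± 0.17 (SE) that did not pass limma's test (adjusted p = 0.475).

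The other RNAs that were lower in Irf4-/- cells have no role known well enough to state. 8430430B14Rik had levels of -1.14 and -1.03 in Irf4-/- cells and 0.05 and 0.34 in wild-type cells. 2500002B13Rik was at -1.22 and -1.26 in Irf4-/- cells and at -0.17 and 0.04 in wild-type cells. In both of these RNAs the arrays of 1 genotype lay close together and the genotypes did not overlap. Gm4956, a transcribed pseudogene, was at -2.32 and -1.80 in Irf4-/- cells and at -0.25 and -1.09 in wild-type cells. Its difference was large in replicate 1 and just past the limit in replicate 2. Gm38426 was at -2.41 and -1.80 in Irf4-/- cells and at -1.41 and -0.46 in wild-type cells. Replicate 2 was the brighter array of both genotypes for this RNA, and the genotypes did not overlap. A630072M18Rik was at -4.28 and -3.82 in Irf4-/- cells, where 1 of the 2 arrays was not above background, and at -2.50 and -2.63 in wild-type cells. Gm15446 was not well above background in Irf4-/- cells and had levels of -3.82 and -3.55 in wild-type cells, at least 1.53-fold lower in Irf4-/- cells, but with normexp background correction its difference was -0.01. Such a bound compares the mean of the genotype with signal to a floor in the other one. On each array the floor is the dimmest signal that was well above background, unless the probe itself was brighter. A bound of this kind applies to the processed signal only and depends on its background subtraction. The remaining 3 were B230208H11Rik (-0.94), Gm11346 (-1.02), whose genotypes overlapped, and NR_038067, with levels of -3.55 and -3.35 in Irf4-/- cells and -2.50 and -2.20 in wild-type cells.

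Among the 33 RNAs that were higher in Irf4-/- cells, some were seen in Irf4-/- cells alone. One was Gm6093, a long noncoding RNA of unknown function that lies among the Serpinb genes of chromosome 13. Gm6093 had levels of -2.82 and -2.13 in Irf4-/- cells, at least 3.91-fold higher than in wild-type cells, where neither array was above background. 1110046J04Rik, which shares its start region with Serpinb6a on the same chromosome, had levels of -2.77 and -2.88 in Irf4-/- cells, at least 3.07-fold higher than in wild-type cells, again with neither array above background. Both RNAs were measured on every Irf4-/- array and on no wild-type array. Such RNAs passed the filter on dim probes only through the genotype in which they were high, and so had to differ. Neither wild-type array was above background for 8 of the 33. Among these, Gm6213 was at least 2.35-fold higher, 5730435O14Rik at least 1.92-fold and A430035B10Rik at least 2.64-fold. Gm1965 was at least 2.18-fold, Gm20597 at least 2.04-fold and 0610040B10Rik at least 1.72-fold higher. With normexp background correction each of the 8 differed by less than its bound (log2 0.82 for Gm6093, 0.30 for Gm20597, 0.17 for 0610040B10Rik). Gm5065 and NR_027907, above background on 1 of 2 wild-type arrays, also passed the filter only through Irf4-/- cells. Among the lower RNAs, Gm15446, A630072M18Rik and NR_028590 of Morrbid passed it only through wild-type cells.

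Among the RNAs above background on all 4 arrays, Gm14718 had the largest difference upward. This RNA, next to the gene for CD40 ligand (Cd40lg), had levels of -0.63 and -0.50 in Irf4-/- cells and -2.48 and -3.57 in wild-type cells, a mean difference of 2.46, or 5.50-fold. The Irf4-/- arrays lay close together and the wild-type arrays apart, with the wider gap in replicate 2. Gm4827 was at -1.68 and -2.07 in Irf4-/- cells and at -4.14 and -3.62 in wild-type cells, 4.02-fold higher on the mean. The accession NR_028086, which no entry of the gene table named, was at 1.21 and 0.63 in Irf4-/- cells and at -1.0 and -1.17 in wild-type cells, or 4.01-fold. The arrays of both RNAs did not overlap between genotypes. NR_027907, likewise unnamed, was at -2.86 and -2.48 in Irf4-/- cells and at -4.48 and -6.35 in wild-type cells, where 1 of the 2 arrays was not above background. The wild-type arrays of this RNA lay far apart, and most of the difference came from replicate 2.

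RNAs with a described role formed a small share of those that were higher. Flicr, which lies at the Foxp3 locus and in mouse regulatory T cells lowers Foxp3 expression, had levels of -2.30 and -2.04 in Irf4-/- cells and -3.34 and -3.27 in wild-type cells, 2.19-fold higher on the mean. Its arrays were tight within each genotype. Foxp3, the transcription factor of regulatory T cells, had levels of -0.49 and -0.06 in Irf4-/- cells and -0.06 and -0.32 in wild-type cells, a difference of -0.08 ± 0.23 (SE; limma, adjusted p = 0.968), so that its arrays overlapped. Mirt1, named for its induction in infarcted mouse heart, had levels of 0.68 and 1.42 in Irf4-/- cells and -0.35 and 0.68 in wild-type cells. The dimmer Irf4-/- array and the brighter wild-type array of Mirt1 lay almost at the same level.

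9230102O04Rik overlaps Gata3, the gene of the factor that defines type 2 helper T cells. This RNA had levels of -2.0 and -1.95 in Irf4-/- cells and -3.32 and -3.15 in wild-type cells, a mean difference of 1.26. Gata3 had levels of 5.62 and 5.61 in Irf4-/- cells and 5.86 and 5.73 in wild-type cells, a difference of -0.18 ± 0.17 (SE; limma, adjusted p = 0.841). The noncoding RNA was thus higher in both replicates while the coding gene it overlaps differed by about its standard error in the other direction. 9230102O04Rik was singled out after its values were seen, since it lies outside the 8 largest differences. So were 2010204K13Rik and A430093F15Rik. 2010204K13Rik had levels of 3.33 and 3.42 in Irf4-/- cells and 2.42 and 2.17 in wild-type cells by NR_027925. By its second accession it had levels of 0.13 and 0.09 in Irf4-/- cells and -0.88 and -0.97 in wild-type cells. The mean differences were 1.08 and 1.04, and neither accession's genotypes overlapped. A430093F15Rik, between the surface receptor genes Cd5 and Cd6, had levels of 3.87 and 4.02 in Irf4-/- cells and 3.12 and 2.95 in wild-type cells.

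Dleu2 is the host transcript of the microRNAs miR-15a and miR-16, which limit the cell cycle and the survival factor Bcl2 in lymphocytes. It had levels of -1.06 and -0.97 in Irf4-/- cells and -1.83 and -2.13 in wild-type cells, a mean difference of 0.97. The genotypes did not overlap. The mature microRNAs were not measured. They are shown because they are the known products of this RNA and share 1 seed (bases 2 to 8, in capitals); both lie on the minus strand of GRCm38.p6, at chr14:61631936-61631957 and chr14:61632075-61632096, and the sequences are those of RefSeq.
mmu-miR-16-5p: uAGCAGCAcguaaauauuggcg
mmu-miR-15a-5p: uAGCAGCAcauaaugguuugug

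**Figure D2:**
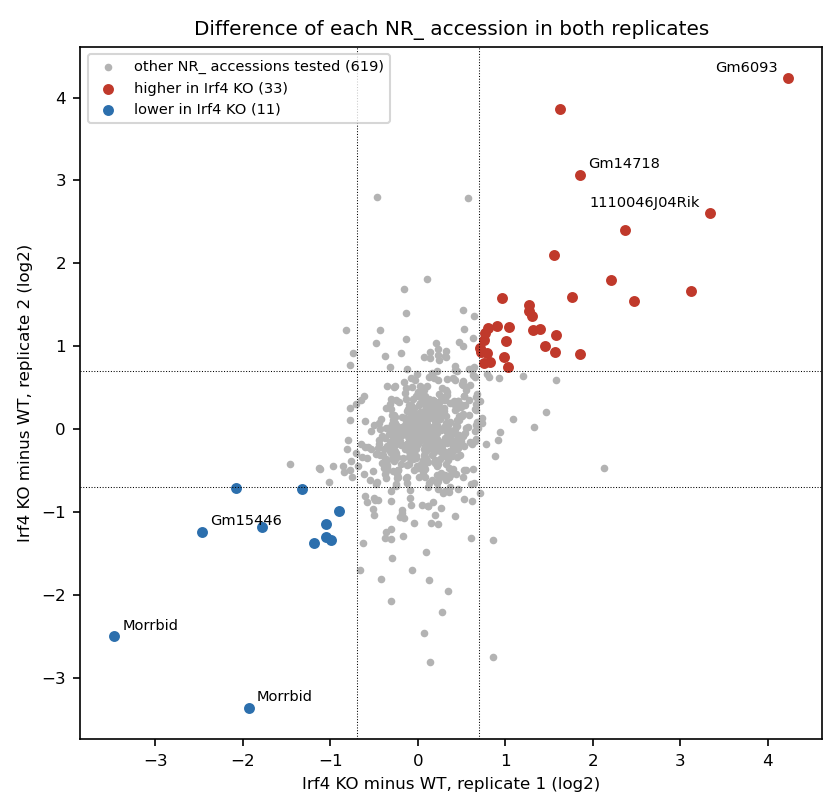
Difference, Irf4-/- minus wild type, of each noncoding accession tested in replicate 1 (horizontal axis, log2) and replicate 2 (vertical axis, log2). Red points are the 33 accessions that were higher and blue points the 11 that were lower by 0.7 or more in both, grey points the 619 others, and dotted lines mark 0.7 and -0.7. Morrbid appears as 2 accessions in the lower left and Gm6093, whose wild-type signal was below background, at the upper right.

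Over the whole set the median difference was 1.27 for the 33 RNAs that were higher and -1.28 for the 11 that were lower, beside a median of 0.03 over all noncoding accessions tested. The sizes ran up to 4.23 among the higher and -2.98 among the lower RNAs, where probes below background entered with their measured signal. With normexp background correction and an offset of 50 the medians were 0.64 and -0.64, and for 31 of the 44 the difference was smaller by more than 1.5 times. It was 0.82 for Gm6093, 0.64 for 1110046J04Rik, 0.98 for Gm14718, 0.71 for Gm4827, 0.34 for Flicr, 0.50 for Dleu2 and 0.49 for 9230102O04Rik. Morrbid kept a difference of -2.16 by NR_028591 and had -0.89 by NR_028590, NR_028086 had 1.54 and Mirt1 0.74. The genotypes did not overlap for 42 of the 44, with Gm11346 and Gm10069 as the exceptions, beside 36.5% of the noncoding and 39.7% of all accessions tested. Since the rule asks for 0.7 or more in the same direction in both pairs, it nearly ensures this, and nothing is read from it. In 24 of the 44 the difference was larger in replicate 2. Their probe signals were low, with a median level of -2.39 over the 4 arrays, against -1.72 for all noncoding and 1.03 for protein-coding accessions tested, which describes probes and not amounts of RNA. Only 11 had a mean level above 0 in either genotype, and 31 were above background on all 4 arrays. Near the limit of 0.7, Gm10069, Gm4956 and Gm5065 were just inside, with smaller differences of 0.71, 0.71 and 0.72 in size. Just outside lay NR_026831 at 0.67, 1700001L05Rik at 0.66 in the lower direction and 1810062O18Rik at 0.65. The limit therefore separates RNAs whose values differ by less than the spread between replicates.

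By annotation, 36 of the 44 accessions belonged to long noncoding RNA genes, of 467 such accessions tested. Another 4 belonged to transcribed pseudogenes, of 112 tested, and 4 had no entry in the gene table. None came from the 9 small nucleolar, 7 small nuclear or 4 RNase P RNAs tested. By name, 13 of 98 gene models with a Gm number were chosen (13.27%, 11 higher and 2 lower). The rule chose 17 of 262 Rik clones (6.49%, 13 higher and 4 lower). It also chose 5 of 139 accessions with a regular symbol (3.6%), namely Morrbid on both its accessions, Dleu2, Flicr and Mirt1. Over all noncoding accessions tested the share was 6.64%. The median GC content was 54.5% in the windows of the 30 genes and 56.0% in those of the 358 others. A coding gene overlapped 14 of the 38 genes (36.8%), against 228 of 578 other noncoding genes tested (39.4%).

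Lists of noncoding RNAs chosen by function, with earlier results of these data known, show how these RNAs stand beside well-studied ones. The 5 lists named 107 genes, of which 43 were tested, with a median difference of -0.12. Of the 43 tested, 4 were among the RNAs chosen, or 9.30%, beside 6.64% of all noncoding accessions tested. Of 12 RNAs described in lymphocytes or immune responses, Dleu2, Flicr and Mirt1 were higher and Morrbid lower, and the list's median was -0.01. The proto-oncogene neighbour Pvt1 was at -0.03 and 0.10 in Irf4-/- cells and at -0.37 and 0.14 in wild-type cells. Ifngas1, next to the interferon gamma gene, was at -3.15 and -3.09 in Irf4-/- cells and at -3.33 and -2.20 in wild-type cells. The arrays of Pvt1 and Ifngas1 overlapped between genotypes.

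None of 14 host genes of small nucleolar RNAs met the rule, and their median difference was -0.18. Of these, 13 had differences below 0 and Snhg15 one of 0.51, with no call by limma. Snhg6, with levels of 5.45 and 5.53 in Irf4-/- cells and 5.73 and 5.58 in wild-type cells, shows how small these differences were. Of 3 microRNA hosts tested, Dleu2 and Mirt1 met the rule and Mir22hg differed by 0.35, although no annotated microRNA lay inside Mirt1. Of 8 RNAs of nuclear architecture and imprinting, none met the rule. Neat1, the scaffold of paraspeckles, was at -2.59 and -2.45 in Irf4-/- cells and at -2.59 and -1.98 in wild-type cells, which overlapped. Of 11 catalytic and small RNAs, none met the rule either. Among these Rpph1, the RNA of RNase P, differed by -0.67 and its near-identical copies Rprl1, Rprl2 and Rprl3 by -0.66, -0.73 and -0.66. The copies may share signal on one another's probes and do not count as separate measurements. Over the whole table limma called 109 accessions higher and 56 lower (0.504% and 0.259%). At an unadjusted p under 0.05 there were 1382 and 1105, of 21623 tested. Of the 43 genes of these lists limma called 0 (3 higher and 1 lower unadjusted). It called 0 accessions without wild-type replicate 1 (1019 higher and 974 lower unadjusted) and 0 without wild-type replicate 2 (1195 and 602).

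**Figure D3:**
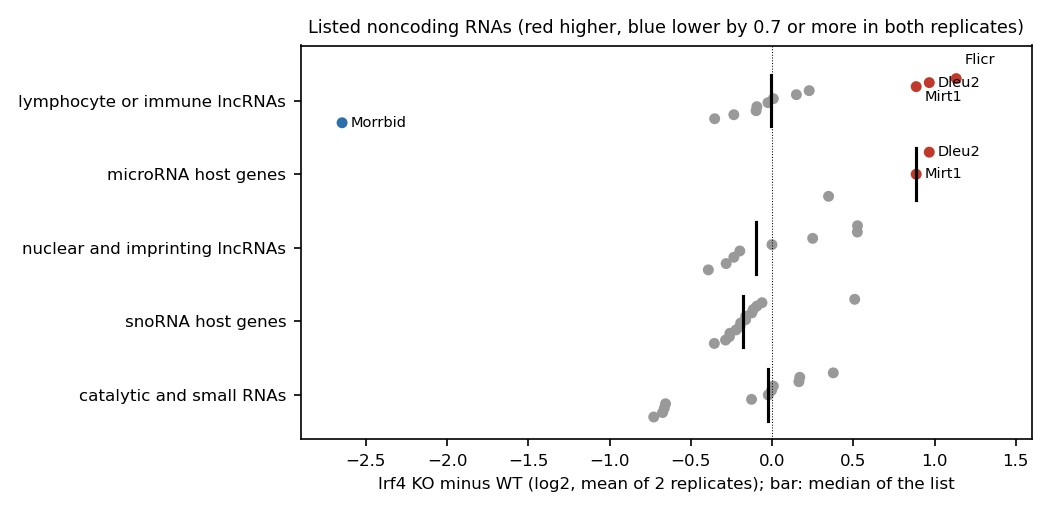
Mean difference, Irf4-/- minus wild type (log2, horizontal axis), of each tested noncoding RNA in 5 lists by function. Red points were higher and blue points lower by 0.7 or more in both replicates, grey points neither, and the bar is the median of the list. Morrbid lies apart at -2.65, and the 14 small nucleolar RNA hosts lie near 0 with a median of -0.18.

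Many long noncoding RNAs are discussed together with the coding genes beside them, so the nearest coding gene on each side and any overlapping one were read for each RNA. At least 1 such neighbour was tested for 35 of the 38 genes. For 10 of the 35 (28.6%) a neighbour met the same rule in the same direction, and for 2 (5.71%) in the opposite direction. Among 506 other noncoding genes the shares were 6.92% and 4.94%, with the direction of a gene taken from its own difference. The mean difference of the neighbours had the sign of the noncoding RNA for 25 of the 35 (71.4%), against 250 of the 506 (49.4%), and correlated with it at r = 0.41 (rho = 0.45, n = 35), against r = 0.15 (rho = 0.08, n = 506). All these values come from the same 4 arrays that chose the RNAs, so the RNA and its neighbour share their libraries. None of the differences between the sets was tested. The rule also kept only RNAs with large differences, while the 506 others include small ones whose sign is uncertain. That choice by itself can raise the correlation and the shares that match in direction, so nothing is read from these contrasts. The largest neighbour mean among the 35 was 3.30, for 9130015A21Rik, and came mainly from its neighbour Agr3 (5.59). The correlation without this RNA was not computed. The rule was met in the same direction in 3 of 12 pairs with an overlapping gene, 6 of 30 with the nearest gene before and 4 of 26 with the nearest gene after. Whether the probe of an RNA also binds the transcript of an overlapping gene was not tested.

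Over all 21623 accessions tested, limma called 0.504% higher and 0.259% lower (1382 and 1105 accessions at an unadjusted p under 0.05). Of 67 neighbours tested, limma called 1 higher and 0 lower (17 and 5 at an unadjusted p under 0.05). That gene was Agr3, a secretory-pathway disulfide isomerase gene after 9130015A21Rik, with levels of 1.51 and 1.48 in Irf4-/- cells and -3.59 and -4.62 in wild-type cells (difference 5.59 ± 0.37 SE, adjusted p = 0.027). Agr3 was above background on both Irf4-/- arrays and on 1 of 2 wild-type arrays. On the other side of 9130015A21Rik lies Ahr, the gene of the aryl hydrocarbon receptor, whose levels were -0.21 and 0.60 in Irf4-/- cells and -1.11 and -0.53 in wild-type cells (adjusted p = 0.375). The genotypes did not overlap for either neighbour, and 9130015A21Rik itself had levels of -3.15 and -2.0 in Irf4-/- cells and -4.42 and -3.42 in wild-type cells.

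The pairs below include RNAs that were named for their neighbours after the values were seen. The other pairs in the same direction did not pass limma's test and are given as values. Overlapping 1110046J04Rik, Serpinb6a, the gene of an intracellular serine protease inhibitor, had levels of 3.95 and 3.91 in Irf4-/- cells and 2.11 and 2.53 in wild-type cells (adjusted p = 0.0604). Serpinb6c, of the same gene family and the nearest coding gene before the RNA without overlapping it, had levels of 3.58 and 3.37 in Irf4-/- cells and 1.59 and 2.08 in wild-type cells, a difference of 1.65 ± 0.23 (SE; adjusted p = 0.0683). The genotypes did not overlap for either gene. Overlapping Dleu2, the ubiquitin ligase gene Trim13 had levels of -0.25 and -0.11 in Irf4-/- cells and -1.48 and -1.53 in wild-type cells (adjusted p = 0.057). Its genotypes lay apart by more than 1 on the log2 scale. Around A430093F15Rik, Cd5, which dampens antigen receptor signals, had levels of 7.22 and 7.26 in Irf4-/- cells and 6.43 and 6.33 in wild-type cells (adjusted p = 0.127). Cd6, a related receptor on its other side, had levels of 7.33 and 7.43 in Irf4-/- cells and 6.59 and 6.67 in wild-type cells (adjusted p = 0.17). The 3 adjacent genes thus differed by 0.91, 0.86 and 0.75, all upward and with tight replicates. Before 2500002B13Rik, Sap30, which encodes a subunit of a histone deacetylase complex, had levels of -0.37 and -0.32 in Irf4-/- cells and 0.60 and 0.87 in wild-type cells (adjusted p = 0.0959). It was the 1 neighbour that met the rule in the lower direction together with its RNA.

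Further pairs in the higher direction were Gm17745 with the Ets factor gene Elk3 (0.98), Gm20597 with Cep85l (0.82) and A430035B10Rik with Glcci1 (0.91). Ppp1r3f, a regulatory subunit gene of protein phosphatase 1, lies at the Foxp3 locus, after 2010204K13Rik in the gene order and overlapping Flicr. It had levels of -3.69 and -3.02 in Irf4-/- cells, at least 2.13-fold higher than in wild-type cells, where it was not above background. It counts for both RNAs. In the opposite direction to their RNAs lay Plxna1 beside Gm1965 (-0.90) and Anxa3 beside Gm8013 (-1.32). Anxa3 was above background on 1 of 2 Irf4-/- arrays, so it passed the filter on dim probes only through wild-type cells. Beside A330009N23Rik, the receptor-induced nuclear receptor gene Nr4a1 had levels of 7.12 and 7.23 in Irf4-/- cells and 6.52 and 6.33 in wild-type cells, just short of the rule in replicate 1. Beside Mirt1, the phosphatase gene Dusp5 had levels of -0.07 and -0.49 in Irf4-/- cells and -0.99 and -0.97 in wild-type cells. Gm14718 could not be set against Cd40lg, which was above background on 1 of the 4 arrays. Smndc1, on the other side of Mirt1, was at 0.62 and 0.77 in Irf4-/- cells and at 0.76 and 0.70 in wild-type cells, with overlapping genotypes.

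A shared start region was one feature that the rule did not use. The promoter window overlapped that of a coding gene on the other strand for 6 of the 30 genes (20.0%), against 89 of 358 other noncoding genes (24.9%). In 3 of the 6 the coding partner met the rule, in the direction of its RNA, namely Serpinb6a, Sap30 and Glcci1. The partners Zfp148, Washc2 and Flcn of 1700007L15Rik, 9530062K07Rik and Gm16062 differed by -0.13, 0.07 and 0.16. Among the 89 others, 78 partners were tested and 2 met the rule. The choice of RNAs on these arrays and the small number of shared windows limit what this difference shows, and it was not tested.

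**Figure D4:**
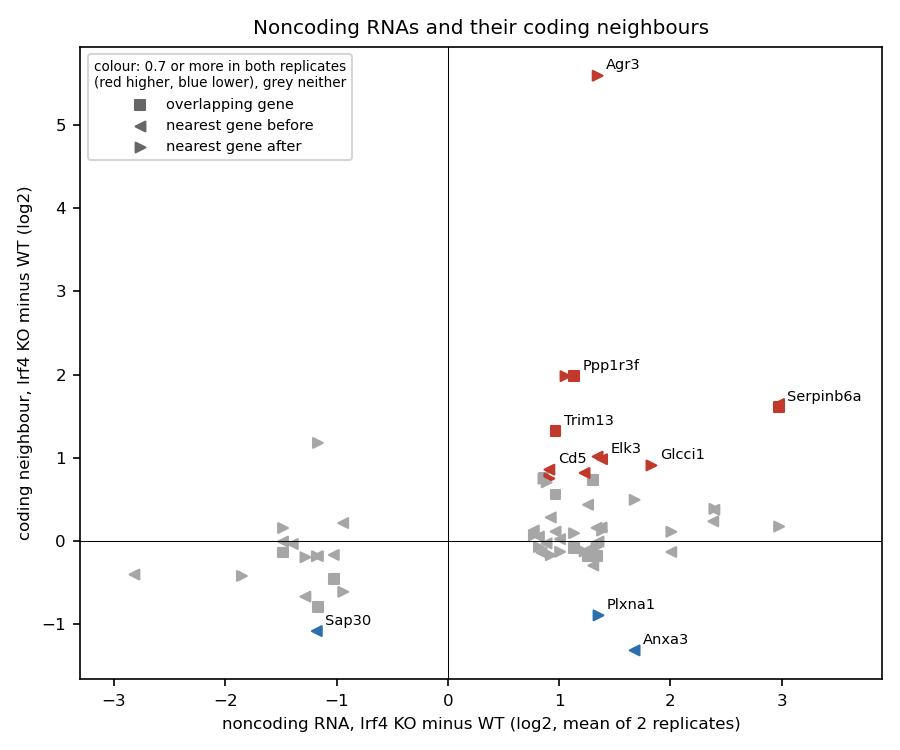
Mean difference, Irf4-/- minus wild type, of each noncoding RNA (horizontal axis, log2) and of each tested coding neighbour (vertical axis, log2). Squares are overlapping genes and triangles the nearest gene before or after. Red and blue points are neighbours that were higher or lower by 0.7 or more in both replicates, grey points neither. Agr3 lies highest at 5.59, and Sap30 is the coloured point at the lower left.

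The 2 RNAs with the largest bounds, Gm6093 and 1110046J04Rik, lie 49 and 58 genes from Irf4 on chromosome 13, in the RefSeq gene order. This was noticed in the values, so the window that follows was chosen after they were seen. Within 100 genes of Irf4 on either side, 46 genes were tested, these RNAs included and Irf4 left out, and 8 met the rule as higher and 1 as lower (19.6%). On the rest of the chromosome 447 were tested, and 18 met it as higher and 13 as lower (6.94%). The share in the window includes Gm6093, 1110046J04Rik and Gm11346, which this same rule had chosen. Nothing is therefore read from the difference between the shares. Of 5 Serpinb genes tested, 4 were higher. Serpinb6b had levels of 5.04 and 4.80 in Irf4-/- cells and 2.88 and 3.18 in wild-type cells (limma, adjusted p = 0.0436). Serpinb9, the gene of the granzyme B inhibitor, had levels of 3.50 and 3.22 in Irf4-/- cells and 1.75 and 1.47 in wild-type cells (adjusted p = 0.0497). Both lay apart between genotypes, and both calls, like that of Agr3, were lost when either wild-type array was left out or the replicate number entered as a block, where limma called 0 accessions. Serpinb1a, with levels of -2.11 and -4.33 in Irf4-/- cells and -3.16 and -2.80 in wild-type cells, had opposite signs in the replicates. Gm11346, a transcribed pseudogene 88 genes on the other side of Irf4, was the 1 gene counted as lower. Irf4 itself, with differences of -0.80 and -0.70, would also meet the rule as lower. Which of these values reflect the place on the chromosome was not tested.

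**Figure D5:**
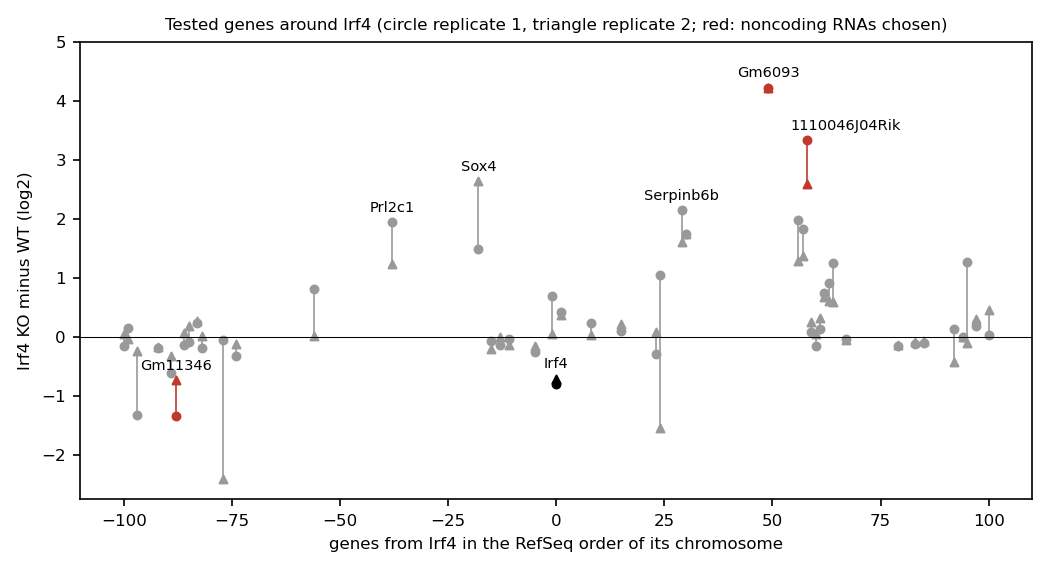
Difference, Irf4-/- minus wild type (log2, vertical axis), of each tested gene within 100 genes of Irf4, by its place in the RefSeq order of chromosome 13 (horizontal axis, genes from Irf4). Circles are replicate 1, triangles replicate 2 and lines join them. Red marks the noncoding RNAs chosen here, black Irf4 itself. Gm6093 and 1110046J04Rik, both below background on the wild-type arrays, stand highest, 49 and 58 genes away.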

How the data were processed

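Total RNA of 4 samples was measured on 4 one-colour (Cy3) Agilent mouse arrays, 2 per genotype. Per the file headers, spot intensity came from Agilent Feature Extraction, version 11.0.1.1; version 9.1 is the one named in the submitters' processing notes. The background-subtracted processed signal was the deposited intensity taken here. A table of log2 values from the authors was deposited too. It equalled log2 of that signal less the array's 75th percentile, centred per probe on its mean, up to a shift of at most 0.03. It served only as an alternative.

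Control spots and spots flagged as outliers or by hand were left out, which removed 137 of 56605 probes, and the log2 values of a probe's spots were averaged. Each accession was represented by its brightest probe, and 21623 of 47738 accessions passed the filter on dim probes. Accessions were named through a RefSeq table of GRCm38.p6. The array was designed on another build, so coordinates of GRCm38.p6 were not used to place probes. They served for the order and overlap of genes, for promoter windows and for microRNAs inside an RNA. The genotypes were compared with limma 3.58.1 in R 4.3.3 (2 residual and 2.95 prior degrees of freedom), with Benjamini-Hochberg adjustment over all accessions tested at a threshold of 0.05. SE is limma's moderated standard error. This test was checked on simulated data. The rest was computed in Python 3.11.15.

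The noncoding RNAs, the lists and the tests were chosen with earlier results of these data known. The text names Irf4, the 8 largest differences in each direction, list members and 3 RNAs on each side of the limit, with neighbours that passed limma or met the rule, and says where others were chosen after their values were seen. Values for a spot's mean signal were not used here, so the normexp alternative took spot and background medians. Deviations of same-numbered arrays from their group means correlated at r = 0.347, which with 2 pairs establishes no pairing. Nothing says whether the arrays of a genotype came from separate mice, so p-values measure the spread between these samples only, and the number of arrays limits the precision. Slide and scan were the same for all 4 arrays.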

Additional observations from a re-analysis of the deposited data

How the results depend on the processing

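The number of noncoding RNAs chosen depended on the background correction and the limits. Beside 33 higher and 11 lower, normexp (spot and background medians) gave 11 and 4, no filter on dim probes 80 and 32, a size of 0.5 instead of 0.7 gave 53 and 23, and a size of 1.0 gave 19 and 7. Median scaling gave 19 lower. On 1 replicate pair alone, 53 to 70 were higher and 30 to 67 lower. The counts stayed within 1.5 times with quantile normalization (27 and 13), the deposited log2 table (31 and 11), probes above background on all 4 arrays (23 and 8), flagged spots kept (34 and 11), all 4 differences past the size (23 and 8) and the mean over probes (32 and 11). Of 339 comparisons of an RNA with another setting, 0 changed sign and 58 moved by more than the spread between replicates, 37 of them with normexp. The 339 include settings that changed only the filter on dim probes and left each value as it was, so these could not move. The mean over probes could change only 1 RNA, which had a second probe. Since the rule asked for 0.7 or more in both replicates, little could change sign, and nothing is read from the 0. With normexp the difference of Gm15446 was -0.01, where the sign carries no weight, and that of 5730435O14Rik 0.32. Of the lists, only the median of the microRNA hosts moved so, to 0.50 with normexp.

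The 109 higher and 56 lower calls of limma became 470 and 307 with normexp, 625 and 481 with median scaling, 195 and 85 with the deposited table, and 496 and 309 with trend and robust settings. They became 0 and 1 with quantile normalization (1324 and 1381 at an unadjusted p under 0.05) and 0 and 0 without a filter on dim probes (1450 and 777 unadjusted). With a replicate block, the same as a block for slide row, they became 0 and 0 (1861 and 1557 unadjusted). Leaving out 1 array gave 0 to 346 higher and 0 to 165 lower calls, where the lone array is assumed to vary like the others. The causes were not tested. Signal near background limits the dim RNAs, and 2 arrays per genotype limit all of them.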

Other observations

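The 38 named genes were spread over the chromosomes, with 5 on chromosome 6, 4 each on chromosomes 5 and 10, and 3 each on chromosomes 2, 8, 13 and X. Of the 3 on the X chromosome, Flicr lies at the Foxp3 locus, and 2010204K13Rik shares the neighbour Ppp1r3f with it.

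A further probe existed for 2 of the genes. The second probe of Gm1965 differed by 0.63 and that of a second accession of Gm10069 by 0.13, and neither was above background on any array. Cd40lg, the neighbour of Gm14718, had a measured difference of 1.51 on its dim probe, with levels of -3.44 and -4.54 in Irf4-/- cells and -4.70 and -6.29 in wild-type cells.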
